A study of Mus musculus with 18 samples.

Results

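The genes described here are 7 integrin subunits (Itga2, Itga3, Itga6, Itgav, Itgb1, Itgb4 and Itgb6) and 2 laminin chains (Lama3 and Lamb3), 9 of the 24116 genes in a table of expression levels from mouse intestinal organoids. They were taken from the table by symbol, and the set was chosen with earlier results of these data known. Organoids are small epithelial structures that intestinal stem cells can form in culture. There were 18 libraries, 3 at each of 6 times from day 0 to day 5, all from wild-type C57BL/6 organoids of animals aged 8 weeks, and each library pooled 30 wells.

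Every group was grown in a base medium with EGF, Noggin and R-Spondin, called ENR. Until day 1 the medium also held 20% Wnt3a-conditioned medium, the ROCK inhibitor Y-27632 at 10 µM and the GSK3B inhibitor CHIR99021 at 3 µM. From day 1 to day 3 CHIR99021 was left out, and from day 3 to day 5 the cells had ENR alone. By this schedule days 2 and 3 shared 1 medium, and days 4 and 5 shared another. Between the other days medium and day changed together, and their parts in a difference cannot be told apart. The sample titles name mouse 1 for each replicate 1 and mouse 3 for each replicate 3. For replicate 2 they name mouse 2, but mouse 1 at days 1 and 2. Replicate 1 was the library without DNase treatment at each day, which gave 6 untreated and 12 treated libraries. The p-values below therefore measure the spread between cultures of at most 3 animals, and the main fit had no term for the mouse.

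Integrins are receptors made of 1 alpha and 1 beta subunit that bind cells to the matrix around them and pass signals across the membrane. Laminin-332 is a basement membrane protein whose alpha-3 and beta-3 chains are encoded by Lama3 and Lamb3. It is bound by the alpha-3 beta-1 and the alpha-6 beta-4 integrins, and the latter anchors epithelial cells through hemidesmosomes. The alpha-v beta-6 integrin binds latent TGF-beta and can activate it, and the alpha-2 beta-1 integrin binds collagen.

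Levels are RPKM, reads per kilobase of gene relative to the size of the library. The library sizes implied by the table were 43010000 to 53930000 reads. The labelled tissue carried its markers: the summed level of 7 epithelial genes was between 1950 and 6950 RPKM in every library. The summed level of 10 mesenchymal genes was 0.715 to 6.61 RPKM, that of 11 immune genes 0.366 to 1.85 and that of 5 endothelial genes 0.0494 to 0.379. Dcn and Cd8a were listed at 0 in every library. The mesenchymal sum was highest at day 0 (1.72 to 6.61 RPKM, against 1.11 to 1.58 at day 1). These are bulk libraries, in which fewer cells of a type and less RNA per cell cannot be told apart.

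Promoter sequence was available for 6 of the 9 genes, credited to RefSeq with build GRCm38.p6, in windows of 250 bases before each start. Itga6, Itgb4 and Lama3 had no entry. The 3 sequences below are shown because they belong to the most abundant subunit transcript (Itgb1), to the subunit with the largest change called between days 1 and 5 (Itgb6), and to the laminin chain that was abundant from the start (Lamb3). Each runs 5′ to 3′ on the strand of its gene. Capitals mark a motif match. For Itgb6 the 50 bases nearest the start are left out. For Lamb3 the first start is the first with a sequence available. It lies inside the annotated gene, which begins at chr1:193294353, and the bases before that position were not searched.
Itgb1, chr8:128685404-128685653 (+): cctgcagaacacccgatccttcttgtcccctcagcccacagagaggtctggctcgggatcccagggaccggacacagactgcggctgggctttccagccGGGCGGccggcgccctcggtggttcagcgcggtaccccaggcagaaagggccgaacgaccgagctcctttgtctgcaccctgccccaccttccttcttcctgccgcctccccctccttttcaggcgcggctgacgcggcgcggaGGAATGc
Lamb3, first start, chr1:193301744-193301993 (+): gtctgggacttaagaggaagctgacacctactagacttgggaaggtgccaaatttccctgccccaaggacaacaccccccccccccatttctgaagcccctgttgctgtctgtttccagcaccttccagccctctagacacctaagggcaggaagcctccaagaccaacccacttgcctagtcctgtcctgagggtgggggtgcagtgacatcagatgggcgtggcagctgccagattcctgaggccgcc
Itgb6, first start, chr2:60722654-60722853 (-): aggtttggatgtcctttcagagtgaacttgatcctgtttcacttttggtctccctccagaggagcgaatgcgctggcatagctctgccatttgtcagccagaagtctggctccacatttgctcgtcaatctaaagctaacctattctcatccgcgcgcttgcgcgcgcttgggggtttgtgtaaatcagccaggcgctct
In these windows 5 motifs were searched on both strands: AP-1 (TGANTCA), TEAD (GGAATG), TCF/LEF (CTTTGA), a GC box (GGGCGG) and a TATA box (TATAAA). The GC and TATA boxes were added after the first 3 motifs gave few matches. Itgb1 held the TEAD letters 7 bases before its start and the GC box letters 151 bases before it. The windows printed for Itgb6 and Lamb3 held none of the 5. The window of a second Lamb3 start held the TEAD letters 167 bases before that start, and Itga3 held GC box letters at both of its starts. No match was found for Itga2 or Itgav. Over all 32851 promoter windows the share with a match was 6.75% for AP-1, 12.6% for TEAD, 13.8% for TCF/LEF, 32.7% for the GC box and 12.4% for the TATA box. A match describes letters only and says nothing of binding.

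In the annotation of the same build, Itga6, Itgav and Itgb6 lie on chromosome 2 (chr2:71786886-71858427, chr2:83722303-83806917 and chr2:60598292-60722603). Itga3 (chr11:95044475-95076844) and Itgb4 (chr11:115974725-116008412) share chromosome 11. Itga2 lies at chr13:114833081-114932100, Itgb1 at chr8:128685654-128733579 and Lamb3 at chr1:193294353-193343878. Lama3 is on chromosome 18.

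Over the 6 days, the levels of 3 of the 9 genes changed by limma's F test: Itga6 (adjusted p = 0.00602), Itgb6 (adjusted p = 0.0101) and Itga3 (adjusted p = 0.0393). Itgb6 and Itga6 had their highest mean at day 1 and their lowest at day 5, whereas Itga3 was lowest at day 0 and 1.94 to 2.21 times as high at days 1 and 3. Among all 11111 genes tested, 25.3% passed the same test, so 3 of 9 is close to the background. All 9 genes passed the filter of at least 1 RPKM in at least 3 libraries. Lama3 passed only through libraries of days 1 to 3. The adjusted p was 0.067 for Itgav, 0.0717 for Lama3, 0.127 for Lamb3, 0.144 for Itgb4, 0.169 for Itgb1 and 0.599 for Itga2. With the mouse as replicate block, Itgav (0.0424), Lama3 (0.0416) and Lamb3 (0.0396) passed too, which made 6. The 25.3% of all genes is from the main fit, and the share under this block is not given here. Itga3's call depends on single libraries. It was lost in 16 of 29 alternative fits, with adjusted p up to 0.137. Itga6's was lost in 1, the DNase-treated libraries alone (0.0527).

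**Figure D1:**
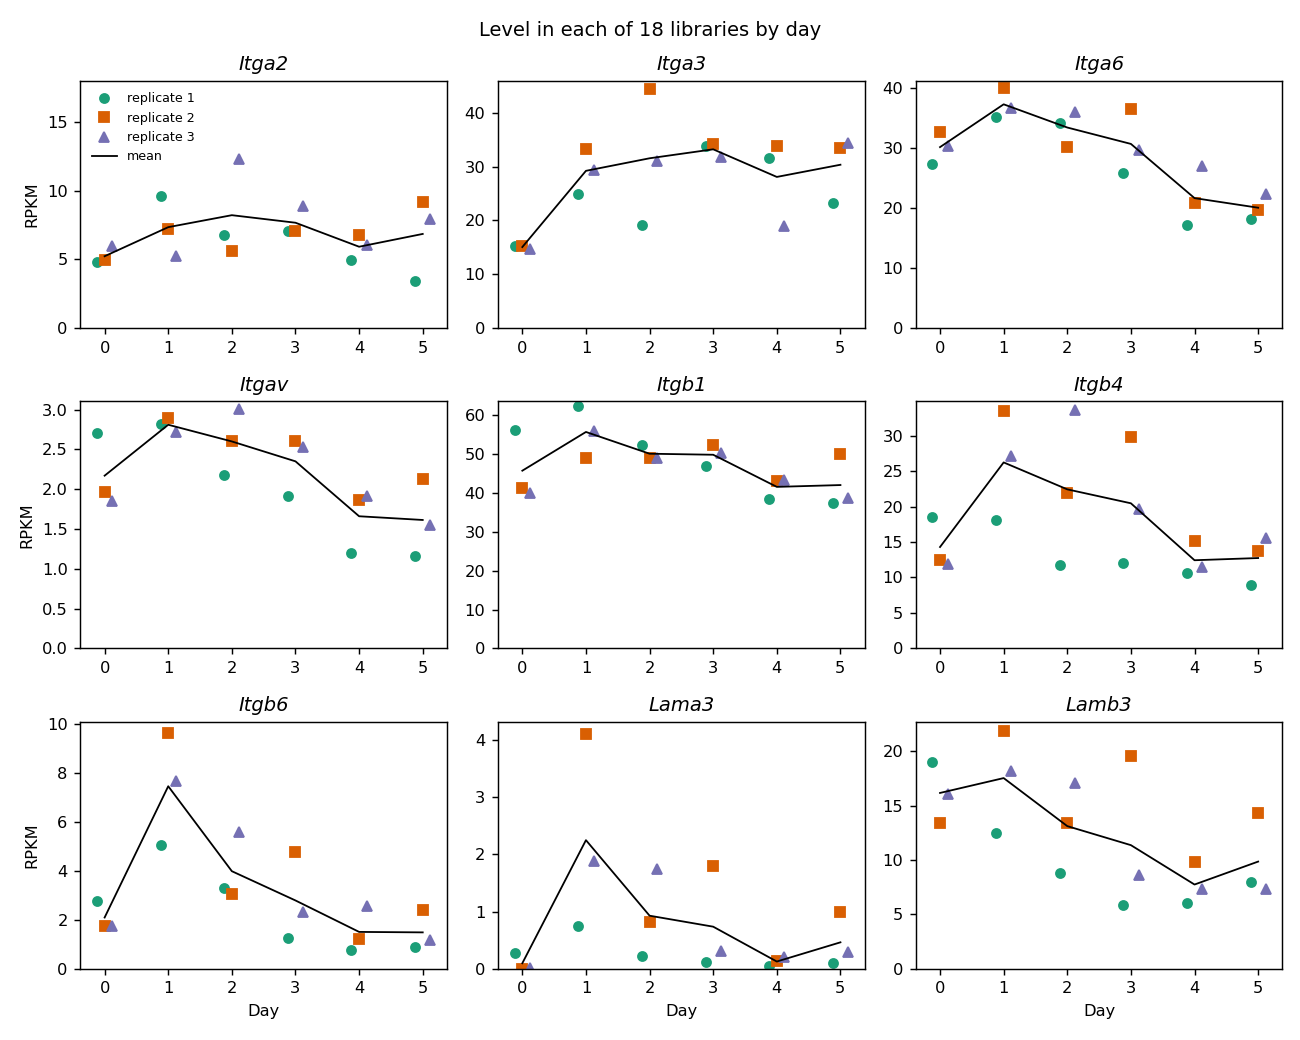
RPKM (y axis, linear) of the 9 genes in each of the 18 libraries by day (x axis). Colours and shapes mark the replicate and the line joins the means of 3 libraries. Itgb6 and Lama3 have their highest mean at day 1, and Itga3 stands near 15 RPKM at day 0 and at 18.9 RPKM or higher in every later library.

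Among the alpha subunits, Itga3 had 15.2, 15.3 and 14.6 RPKM in the 3 libraries of day 0 and 24.9, 33.3 and 29.4 at day 1. No library of either day reached into the range of the other, and the later means were 31.6 ± 12.6, 33.2 ± 1.31, 28.1 ± 8.03 and 30.4 ± 6.21 RPKM (SD, n = 3) at days 2, 3, 4 and 5. Day 0 was the only time whose 3 libraries stood apart from the next in the order of means. On the log2(RPKM + 1) scale the change from day 0 to day 1 was 0.90 ± 0.26 (SE, limma adjusted p = 0.0239). Day 5 differed from day 0 by 0.95 ± 0.26 (limma adjusted p = 0.0185), and from day 1 to day 5 it was 0.04 ± 0.26 (limma adjusted p = 0.909). The rise to day 1 passed no longer after quantile normalization (adjusted p = 0.0551) or without replicates 2 or 3 of day 0 (0.0629 and 0.0721) or of day 1 (0.0876 and 0.0708). The rise to day 5 passed no longer without the same day 0 libraries (0.0511 and 0.0534) or without replicate 2 or 3 of day 5 (0.0607 and 0.055).

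Itga6, which pairs with the beta-1 or the beta-4 subunit, had 27.3, 32.7 and 30.4 RPKM at day 0 and 35.1, 40.0 and 36.7 at day 1. At day 5 it had 18.1, 19.7 and 22.3 RPKM, below every library of day 0 and of day 1. The change from day 1 to day 5 was -0.87 ± 0.16 (limma adjusted p = 0.00323), and it stayed past the threshold in all 30 alternative fits. Against day 0 it was -0.57 ± 0.16 (limma adjusted p = 0.0236). That call was lost in the DNase-treated libraries (adjusted p = 0.0624) and without replicates 2 or 3 of day 0 (0.0833 and 0.0648) or replicates 1 or 2 of day 5 (0.0969 and 0.063). The 0.30 ± 0.16 from day 0 to day 1 did not pass (limma adjusted p = 0.221).

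Itgav, the alpha partner of Itgb6, had 2.7, 1.96 and 1.85 RPKM at day 0, 2.82, 2.89 and 2.72 at day 1 and 1.16, 2.13 and 1.55 at day 5. Every library of day 1 was above those of days 0 and 5. The fall from day 1 to day 5 was -0.56 ± 0.17 (limma adjusted p = 0.0251), and with 0.0722 it was lost in the DNase-treated libraries. It was also lost without replicates 1 or 2 of day 1 (0.0688 and 0.0709) or replicates 1 or 3 of day 5 (0.104 and 0.0652). Itga2 had 4.8, 4.93 and 5.95 RPKM at day 0, 9.59, 7.19 and 5.26 at day 1 and 3.39, 9.2 and 7.97 at day 5. The groups of these 3 days overlapped, and no comparison of Itga2 passed: the largest of the 3 described here was 0.39 ± 0.30 at day 1 against day 0 (limma adjusted p = 0.39).

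Of the beta subunits, Itgb1 was the most abundant at every day and moved least. Its levels were 56.1, 41.2 and 39.9 RPKM at day 0, 62.3, 48.9 and 55.9 at day 1 and 37.3, 50 and 38.8 at day 5, with overlap between each pair of these days. The difference from day 1 to day 5 was -0.40 ± 0.15 (limma adjusted p = 0.0553). It passed when replicate 1 of day 0 (0.0338), replicate 3 of day 4 (0.0492) or replicate 2 of day 5 (0.037) was left out.

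Itgb4, the subunit of hemidesmosomes, had 18.6, 12.4 and 11.9 RPKM at day 0, 18.1, 33.5 and 27.1 at day 1 and 8.93, 13.8 and 15.5 at day 5. All libraries of day 5 were below all of day 1, whereas days 0 and 1 overlapped through replicate 1 of each. The difference from day 1 to day 5 was -0.98 ± 0.36 (limma adjusted p = 0.0552), which did not pass. With the mouse as replicate block it was -1.15 with adjusted p = 0.0241. It also passed without replicates 1 or 3 of day 2 (0.0361 and 0.0422) or replicates 1 or 2 of day 3 (0.04 and 0.0443). The difference between days 0 and 1 was 0.82 ± 0.36 (limma adjusted p = 0.131). In the DNase-treated libraries, which leave out replicate 1, it was 1.25 and passed (adjusted p = 0.011), and with array weights it was 1.07 (adjusted p = 0.00613).

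Itgb6 was a low-level transcript with a peak at day 1. It had 2.79, 1.74 and 1.76 RPKM at day 0, 5.06, 9.65 and 7.68 at day 1, 3.31, 3.07 and 5.59 at day 2, and 0.876, 2.42 and 1.17 at day 5. Day 1 was above day 0 and day 5 in every library. The rise from day 0 to day 1 was 1.43 ± 0.35 (limma adjusted p = 0.011), and without day 1 replicate 2 it did not pass (0.053). The fall from day 1 to day 5 was -1.78 ± 0.35 (limma adjusted p = 0.004) and passed in all 30 alternative fits. In RPKM the mean at day 1 was 3.56 times that of day 0 and the mean at day 5 was 0.199 of that of day 1.

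The laminin chains differed in level by far. Lamb3 was present throughout, with 19, 13.4 and 16.1 RPKM at day 0, 12.5, 21.9 and 18.2 at day 1 and 7.98, 14.3 and 7.29 at day 5. None of its comparisons passed, and the groups of these 3 days overlapped. The difference from day 1 to day 5 was -0.80 ± 0.36 (limma adjusted p = 0.102). It became -1.02 with adjusted p = 0.0273 when the mouse was a replicate block, and it also passed without day 3 replicate 2 (0.0495).

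Lama3 was near 0 at day 0, with 0.281, 0.00197 and 0.00826 RPKM, and had 0.755, 4.11 and 1.88 at day 1. By day 5 it had 0.0998, 0.986 and 0.302 RPKM, which overlapped day 1. At these depths the 2 lowest values stand for less than 1 read per kilobase, so no ratio of RPKM is given. The change in log2(RPKM + 1) from day 0 to day 1 was 1.44 ± 0.40 (limma adjusted p = 0.0196). Lama3 passed the filter only through libraries of days 1 to 3, which favours such a call. The call was lost without replicates 2 or 3 of day 0 (0.0646 and 0.0661) or of day 1 (0.0981 and 0.056). The difference from day 1 to day 5 was -1.06 ± 0.40 (limma adjusted p = 0.056), and -1.25 with adjusted p = 0.0273 under the mouse replicate block. It passed as well without replicate 1 of day 1 (0.0335) or replicates 1 or 2 of day 3 (0.0491 and 0.0361).

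From day 0 to day 1, 3 of the 9 genes rose (Itga3, Itgb6 and Lama3) and none fell, beside 9.54% of all genes tested that rose and 9.05% that fell by limma at adjusted p under 0.05. At unadjusted p under 0.05 there were 4, beside 32.4% of all genes. The change was positive for all 9, with a median of 0.39 against 0 over all genes. The 3 libraries of day 1 were all above those of day 0 for 5 genes (Itga3, Itga6, Itgav, Itgb6 and Lama3), a pattern that 21.6% of all genes showed. Lama3 counts in both tallies, though it passed the filter only through libraries of days 1 to 3, which favours a rise from day 0. Leaving out 1 library gave 0 to 3 calls: without replicate 2 of day 1 no member passed, and without replicate 3 of day 1 or replicate 2 or 3 of day 0 only Itgb6 did.

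From day 1 to day 5, 3 genes fell (Itga6, Itgav and Itgb6) and none rose, beside 16.1% of all genes tested that fell and 11.8% that rose. The median change was -0.8 against -0.15 over all genes, and 7 of the 9 had an unadjusted p under 0.05, as did 43% of all genes. In 4 genes (Itga6, Itgav, Itgb4 and Itgb6) all libraries of day 5 were below all of day 1, beside 33.8% of all genes. With the mouse as replicate block 6 genes passed, and with the replicate number as block 5. Leaving out the libraries that stood apart in earlier results (replicate 1 of day 0, replicate 2 of day 3 and replicate 3 of day 4) gave 7. The shares of all genes above are from the main fit. Those under these settings are not given here, so these counts have no background beside them.

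From day 0 to day 5, Itga3 rose and Itga6 fell, beside 11.4% of all genes that rose and 13.0% that fell. The 2 subunits moved in opposite directions, and the other 7 did not pass. The share of rising genes among all calls depends on scaling: 1268 genes rose and 1446 fell as deposited, and 1600 rose and 1131 fell after median-of-ratios rescaling. That rescaling moved the median of all genes from -0.17 to -0.01, and from -0.15 to -0.03 between days 1 and 5. After it, Itga3 still rose by 1.13 and Itga6 fell by 0.38 from day 0 to day 5, and Itga6, Itgav and Itgb6 fell by 0.71, 0.46 and 1.67 from day 1 to day 5. From one day to the next after day 1, limma called none of the 9 genes. At unadjusted p under 0.05 there was 1 between days 1 and 2 (Itgb6), 0 between days 2 and 3, 1 between days 3 and 4 (Itga6) and 0 between days 4 and 5, beside 2.37%, 0.432%, 4.87% and 4.09% of all genes. Among all genes the share called in these steps was 0%, 0%, 0.0360% and 0.189%.

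**Figure D2:**
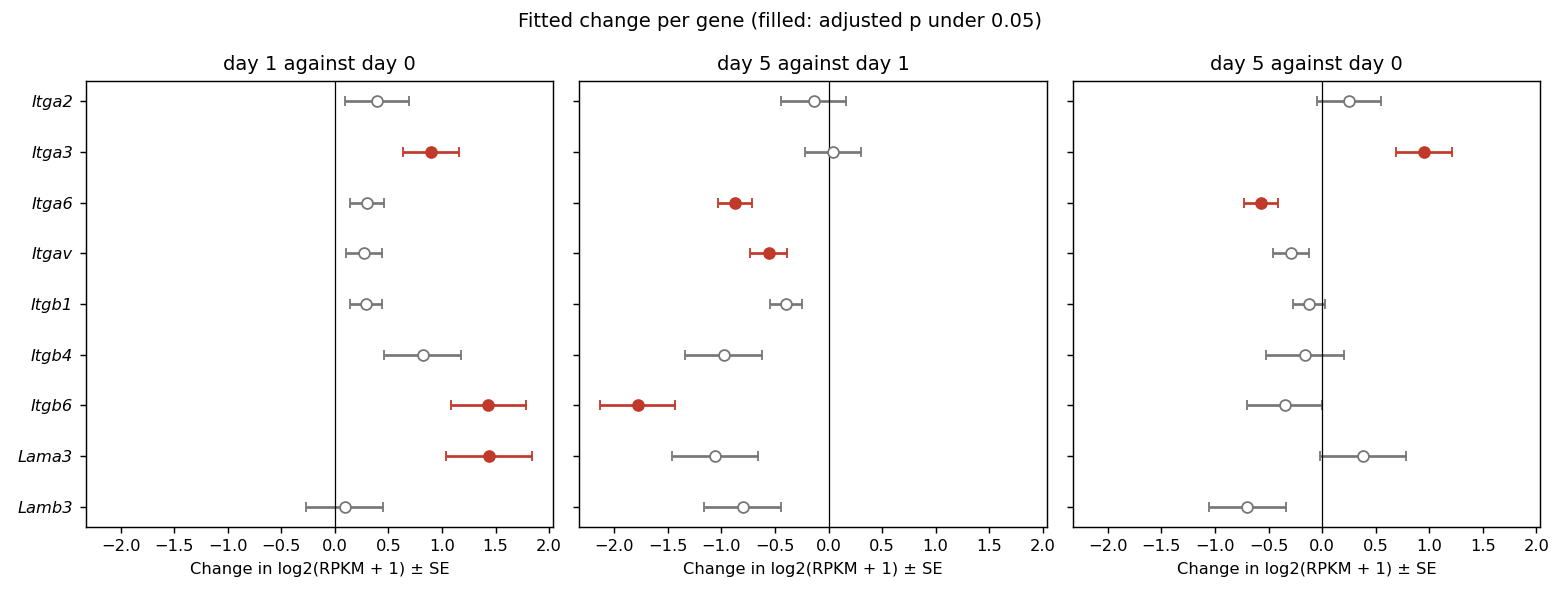
Change in log2(RPKM + 1) with its SE (x axis) for the 9 genes (y axis), in 3 comparisons of days. Filled points have a limma adjusted p under 0.05. All 9 lie above 0 from day 0 to day 1, and from day 1 to day 5 all except Itga3 lie below 0.

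The ratio of Itga3 to Itga6 within a library does not depend on scaling. It was 0.559, 0.466 and 0.48 at day 0, 0.709, 0.831 and 0.801 at day 1 and 1.28, 1.69 and 1.54 at day 5. The log2 ratio differed by 1.58 ± 0.14 (SE) between days 0 and 5, with no overlap of the groups, and 3 of 3 numbered pairs had this direction. The exact permutation test gave p = 0.1, two-sided, which is the smallest that 3 libraries against 3 allow. Between these times lay a wide spread: 0.563 to 1.48 at day 2 and 0.7 to 1.84 at day 4, the lowest at day 4 being replicate 3. Of the summed RPKM of 18 alpha subunit genes, Itga3 made up 26.9 ± 1.37% (SD, n = 3) at day 0 and 48.9 ± 0.475% at day 5, whereas Itga6 went from 53.7 ± 2.84% to 32.9 ± 4.43%. The 4 alpha members together held 93.2% to 97.0% of that sum. Of 8 beta subunit genes, Itgb1 had 69.4 ± 2.99% of the sum at day 0, 57.2 ± 9.72% at day 1 and, by day 5, 65.5 ± 3.97%.

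The 2 laminin chains were far from equal in level per length. The ratio of Lama3 to Lamb3 was 0.0147, 0.000147 and 0.000514 in the libraries of day 0, 0.0601, 0.187 and 0.104 at day 1 and 0.0125, 0.0692 and 0.0414 by day 5. It was 0.187 or lower in each of the 18 libraries, and every library of day 1 was above those of day 0. No change of this ratio is given, because Lama3 stood near 0 at day 0. Both ratios were chosen after the levels were seen. Over the 6 comparisons of ratios the Benjamini-Hochberg adjusted p ran from 0.15 to 0.2, so none passed in exact permutation tests.

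**Figure D3:**
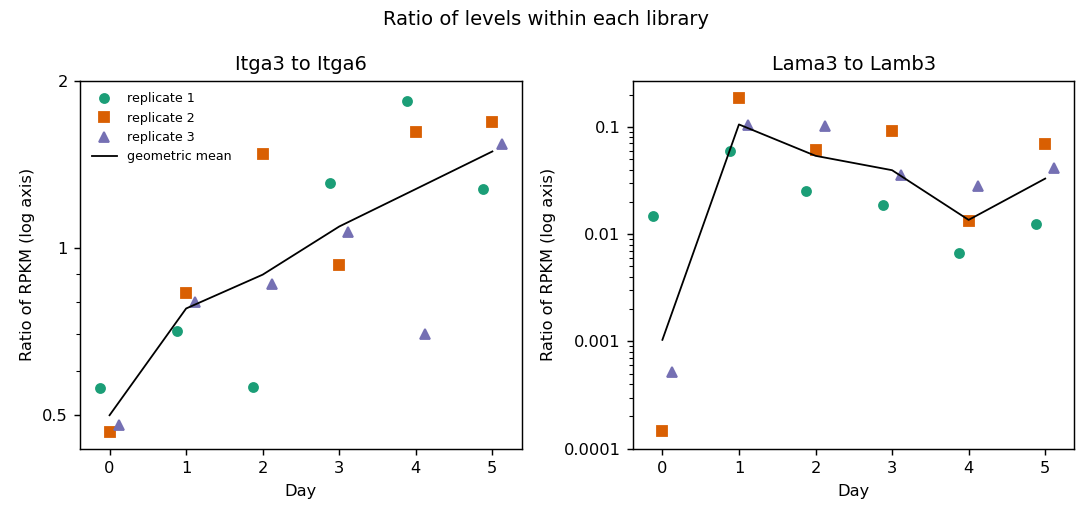
Ratio of RPKM within each library (y axis, log scale) by day (x axis) for 2 pairs of genes, with replicates marked and a line through the geometric means of 3 libraries. The Itga3 to Itga6 ratio is below 0.6 at day 0 and above 1.2 in all libraries of day 5.

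Some of the genes also varied together between libraries of the same day. After the day means were removed, Pearson's r of log2(RPKM + 1) over the 18 libraries was 0.90 for Lama3 with Lamb3, 0.86 for Lama3 with Itgb4 and 0.82 for Lamb3 with Itgb4. Itgb6 had r of 0.85 with Lama3 and 0.83 with Lamb3. These points share libraries, depth and scaling, and for these 4 genes the median within-day r with all other tested genes was 0.04 to 0.23, with a 95th percentile of 0.64 to 0.73. The r of Itgb4 with Itgb6 was 0.72, below the 95th percentile for Itgb6 (0.73). The r of Itga3 was 0.54 with Itgb4, 0.39 with Lama3, 0.36 with Lamb3 and -0.03 with Itgb6. Over all pairs of the 9 genes, r ran from -0.28 (Itga3 with Itga6) to 0.90. The mean of the centred log2 levels over the 9 genes was highest in replicate 2 at days 1, 3, 4 and 5, and at day 5 it was 0.0634 in replicate 2 against -0.587 and -0.228.

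**Figure D4:**
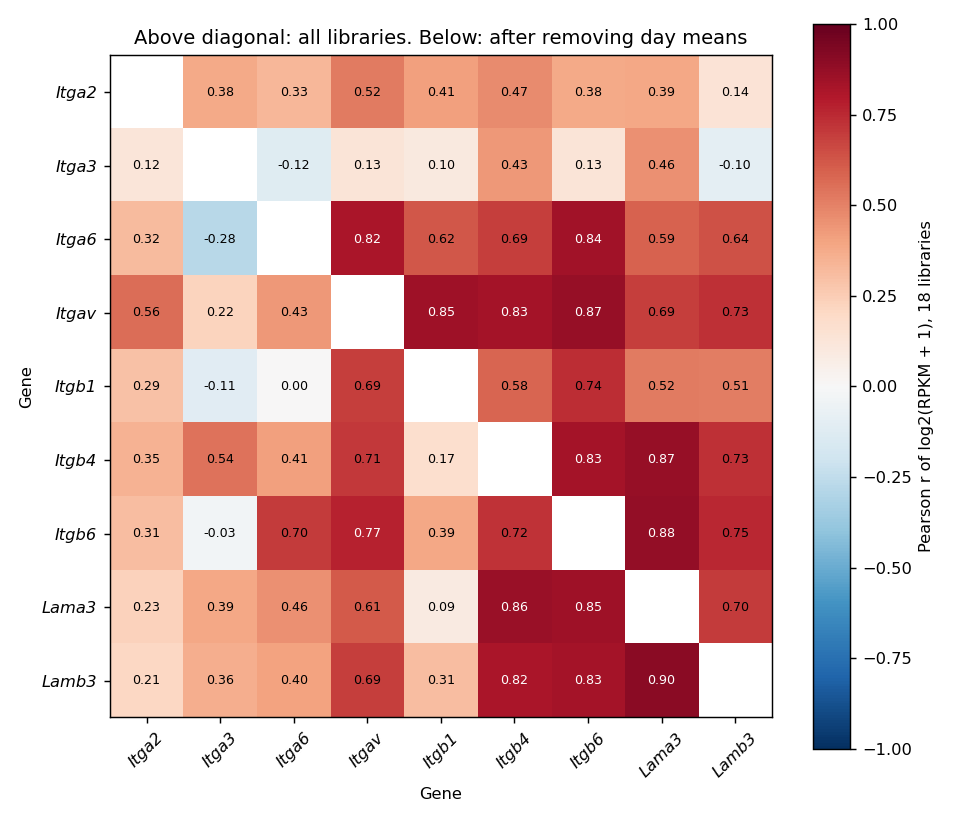
Pearson's r of log2(RPKM + 1) for each pair of the 9 genes over 18 libraries (rows and columns are genes, colour is r). Values above the diagonal use the libraries as they are, and those below use them after the mean of each day is removed. Lama3, Lamb3, Itgb4 and Itgb6 form a block with r of 0.72 or more below the diagonal.

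For each gene the 3 others of most similar pattern were taken by r over the 18 libraries, as a description. Itgb6 was closest to Myo1c (0.97), Zfand2a (0.96) and the keratin gene Krt18 (0.96), Lama3 to Dok2 (0.97) and Itga6 to Btbd19 (0.96). Itga3 was closest to Rusc1 (0.93), Lamb3 to Eml2 (0.9), Itgb1 to Hspa4l (0.89) and Itga2 to Cyb5d1 (0.87). Among the 3 closest to Itgb4 were Ifnlr1 (0.94) and Anxa9 (0.93), and among those closest to Itgav were Emp3 and Abcc1 (both 0.93).

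Some markers of epithelium rose from day 0 to day 1. Of 7 epithelial genes 4 rose and none fell, beside 9.54% of all genes tested that rose and 9.05% that fell. These 4 were Krt8 (1.95 ± 0.40, limma adjusted p = 0.00382), Krt19 (1.65 ± 0.32, 0.00282), Krt18 (1.67 ± 0.56, 0.0492) and Vil1 (0.80 ± 0.26, 0.0453). The other 3 did not pass: the adhesion gene Epcam had -0.03 ± 0.14 (limma adjusted p = 0.916), the cadherin gene Cdh1 -0.18 ± 0.16 (0.472) and the intestinal transcription factor gene Cdx2 -0.50 ± 0.25 (0.185). From day 1 to day 5, 3 of the 7 fell (Krt8, Krt18 and Krt19) and none rose, beside 16.1% and 11.8% of all genes. Vim was the 1 of 10 mesenchymal genes that passed the filter, at -0.87 ± 0.31 from day 0 to day 1 (limma adjusted p = 0.0671). No immune or endothelial marker passed the filter. The part of these markers in the integrin and laminin results was not tested.

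Of 19 other integrin subunits only Itga1 and Itgb5 passed the filter. Itga1, a collagen receptor subunit, had 1.45 ± 0.0847 RPKM (SD, n = 3) at day 0 and 0.769 ± 0.202 at day 1, and it fell by 0.48 ± 0.13 (limma adjusted p = 0.0212). Without replicate 3 of day 0 (0.0708) or replicates 2 or 3 of day 1 (0.0971 and 0.0563) it did not pass. Itga1 met the filter only with the libraries of day 0, which favours a called fall from that day. Itgb5 had 7.35, 2.36 and 2.68 RPKM at day 0 and 6.6, 8.76 and 9.65 at day 1, a difference of 0.98 ± 0.36 (limma adjusted p = 0.0673). It passed without replicate 1 of day 0 (1.40, adjusted p = 0.0106), in the DNase-treated libraries (1.54, 0.022), with array weights (1.36, 0.000306) and without replicate 3 of day 4 (0.0282). Itga5, the fibronectin receptor subunit, did not pass the filter and had day means of 0.19 to 0.367 RPKM. Among other laminin chains, Lama5 and Lamc1 passed the filter. Lamc1 fell from day 1 to day 5 by 0.92 ± 0.26 (limma adjusted p = 0.0198), which was lost without day 1 replicate 2 (0.0633) or day 5 replicate 1 (0.0891). Lama5 had 1.48 ± 0.60 from day 0 to day 1 (limma adjusted p = 0.0983).

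Of 7 partners of hemidesmosomes and laminin 6 passed the filter, and none passed limma's test in the 3 main comparisons. At unadjusted p under 0.05 there were 3 from day 0 to day 1, 0 from day 1 to day 5 and 2 from day 0 to day 5, beside 32.4%, 43% and 40.7% of all genes. The 3 between days 0 and 1 were Cd151, a tetraspanin (0.43 ± 0.17, limma adjusted p = 0.0801), Plec, the plectin gene (0.99 ± 0.46, 0.149), and Dag1 (-0.53 ± 0.20, 0.0734). Dag1, which encodes dystroglycan, had 74.3 ± 4.54 RPKM at day 0 and 51.4 ± 8.72 at day 1 (SD, n = 3). Col17a1, a hemidesmosome collagen, was below 0.1 RPKM on average at days 0, 1 and 5. Of 12 matrix ligand genes 4 passed the filter. Npnt, which encodes nephronectin, a ligand of integrins, rose by 2.16 ± 0.33 from day 0 to day 1 (limma adjusted p = 0.000599), from 0.223 ± 0.148 to 4.51 ± 0.97 RPKM. Npnt passed the filter only through libraries after day 0, which favours a called rise from day 0. The basement membrane proteoglycan gene Hspg2 fell by 1.27 ± 0.32 (limma adjusted p = 0.0127), and without day 0 replicate 3 (0.0691) or day 1 replicate 3 (0.0554) it did not pass.

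Of 20 genes of integrin adhesion complexes, 18 were tested. Between days 0 and 1, 3 of the 18 rose and none fell, beside the 9.54% and 9.05% of all genes given above: Tln2, a talin (1.23 ± 0.32, limma adjusted p = 0.0153), the kinase gene Src (0.54 ± 0.14, 0.0164) and the actin cross-linker Actn4 (0.60 ± 0.20, 0.0474). Tln2 was not called without day 1 replicate 1 (0.0615). Src was not called without replicate 2 (0.0642) or 3 (0.0635) of day 0 or replicate 2 (0.0731) or 3 (0.058) of day 1, and Actn4 not in 17 alternative fits. From day 1 to day 5, 3 of the 18 fell, which is near the 16.1% of all genes, and none rose: Tln2 (-1.08 ± 0.32, limma adjusted p = 0.0244), Tns3 (-0.76 ± 0.17, 0.00803) and Itgb1bp1 (-0.53 ± 0.18, 0.0396). Between days 0 and 5 Src rose and 3 of the 18 fell (11.4% and 13.0% of all genes), namely Lims1 (-0.89 ± 0.26, limma adjusted p = 0.0248), Tln1 (-0.68 ± 0.23, 0.0422) and Tns3 (-0.63 ± 0.17, 0.0193). The fall of Tns3 from day 1 to day 5 was lost only in the DNase-treated libraries (0.105). The other calls of days 1 and 5 or of days 0 and 5 were each lost without at least 1 library, with adjusted p of 0.103 for Tln2 without replicate 1 of day 1, 0.121 for Itgb1bp1 without replicate 1 of day 1, 0.0645 for Src without replicate 2 of day 0, 0.0924 for Lims1 without replicate 1 of day 0, and 0.202 for Tln1 and 0.0911 for Tns3 without replicate 1 of day 5. These are the highest values for each gene with 1 library left out.

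Of 11 genes around latent TGF-beta and its receptors 6 were tested. From day 0 to day 1, 1 of the 6 rose, beside 9.54% of all genes. From day 1 to day 5, 1 rose (Tgfbi) and 1 fell, beside 11.8% and 16.1%. From day 0 to day 5, 1 rose, beside 11.4%. Tgfbr2, a TGF-beta receptor, rose by 1.11 ± 0.25 from day 0 to day 1 (limma adjusted p = 0.00696) and fell by 1.42 ± 0.25 from day 1 to day 5 (limma adjusted p = 0.00212), with 22.8 ± 2.08, 50.4 ± 1.02 and 18.8 ± 5.86 RPKM at days 0, 1 and 5 (SD, n = 3). Tgfbi, a matrix protein gene induced by TGF-beta, rose from day 0 to day 5 by 1.22 ± 0.34 (limma adjusted p = 0.0213). It was not called without replicates 2 or 3 of day 0 (0.0538 and 0.0774) or replicates 1 or 3 of day 5 (0.0956 and 0.0599). Tgfb1, Tgfbr1, Smad7 and Skil passed in none of the 3 main comparisons. From day 0 to day 1 Tgfbr1 had -0.57 ± 0.27 (limma adjusted p = 0.149) and Tgfb1 0.27 ± 0.29 (0.576). Smad7 had 0.25 ± 0.38 (0.687) and Skil 0.38 ± 0.37 (0.517).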

How the data were processed

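RNA was measured in 18 libraries of mouse intestinal organoids, 3 at each of 6 days. The values are RPKM, as the authors deposited them for 24116 genes. Per the submitters' processing notes, the tools were STAR 2.5.2b, bcl2fastq 2.17 and edgeR 3.20.5, with build mm10. Not given in the sources used here are the annotation, the handling of multi-mapping reads and whether strand was used. Library sizes were read from the steps of low values with exon lengths of the GENCODE M21 annotation.

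The model was linear in log2(RPKM + 1), with 1 coefficient per day and moderated variances with a trend (limma 3.58.1 in R 4.3.3). It covered the 11111 genes that reached 1 RPKM in 3 or more libraries. Changes on this scale understate those of low genes. Tests were two-sided with Benjamini-Hochberg adjustment across the 11111 genes, and a gene is called when that value is below 0.05. The script was checked on simulated data.

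The genes described, the lists and the comparisons were chosen with earlier results of these data known. The named genes are the 9 members, Itgb5 and Itga5, the called genes of each related list up to 4 by size of change, and the 3 genes most like each member by Pearson's r. Other genes named were chosen after their values were seen. The main fit had no replicate block, and the mouse in each title was taken as the pairing only in an alternative fit. Within-day deviations had a median correlation of 0.143 in 47 pairs of libraries from the same mouse (-0.643 to 0.806). In 88 pairs from different mice the median was -0.0648 (-0.789 to 0.671). Alternatives were another pseudocount (0.1), no filter or a filter of 5 RPKM, 2 rescalings, a fit of the compared days alone, the mouse or the replicate number as replicate block, array weights, DNase-treated libraries only, 3 libraries left out together, and each library left out in turn. For array weights the gene-by-gene estimator replaced the REML estimator after the latter stopped without converging and gave 1 library a weight of 990. Some genes of the lists are not reported here.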

Additional observations from a re-analysis of the deposited data

How the results depend on the processing

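With 3 of 9 genes called in the F test, 3 from day 0 to day 1, 2 from day 0 to day 5, 3 from day 1 to day 5 and none in the other steps, some settings gave other counts. The mouse as replicate block gave 6 in the F test and 6 from day 1 to day 5, and the replicate number as replicate block gave 5 from day 1 to day 5; other counts of members changed with neither block by over 1.5 times. Array weights gave 6 in the F test, 6 from day 0 to day 1, 2 from day 3 to day 4, 4 from day 0 to day 5 and 5 from day 1 to day 5. Of all 11111 genes, the F test called 9091 with array weights, against 2806 in the main fit. The count of members thus rose together with that of all genes. The REML estimator of these weights, which did not converge, gave 9, 7, 6, 4 and 5 in the same order, and 2 from day 4 to day 5. With it the F test called 10303 of all genes. Without the 3 libraries that stood apart in earlier results (replicate 1 of day 0, replicate 2 of day 3, replicate 3 of day 4) there were 5 in the F test and 7 from day 1 to day 5. The F test then called 4863 of all genes. The DNase-treated libraries alone gave 1 from day 0 to day 5, and a fit of the compared days alone gave 5 from day 1 to day 5. Leaving out each library in turn gave 2 to 4 in the F test, 0 to 3 from day 0 to day 1, 0 to 2 from day 0 to day 5, 2 to 6 from day 1 to day 5 and 0 in each other step. For the comparisons other than the F test, the counts over all genes under these settings are not given here. Why the counts of members moved was not tested.

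The sign of small changes that were not called reversed in 29 cases. From day 0 to day 5, Itgb1 (-0.12) became 0.08 with median-of-ratios rescaling, 0.14 with array weights, 0.17 with the REML weights, 0.11 in DNase-treated libraries, 0.04 without the 3 libraries together and 0.04 without day 0 replicate 1. Itgb4 (-0.16) became 0.02, 0.13, 0.12, 0.25, 0.03 and 0.03 in the same settings and 0.06 without day 5 replicate 1. Leaving out 1 library gave Itgb1 -0.24 to 0.04 and Itgb4 -0.31 to 0.06. Itgb6 (-0.35) became 0.05 with array weights and 0.12 with the REML weights. From day 1 to day 5, Itga2 (-0.14) became 0.21 with array weights, 0.24 with the REML weights, 0.42 in DNase-treated libraries and 0.04 and 0.23 without replicate 1 of day 1 or day 5 (-0.38 to 0.23 over single libraries left out). Itga3 (0.04) became -0.02 with the mouse as replicate block and -0.06, -0.03 and -0.06 without day 1 replicate 1, day 5 replicate 2 or day 5 replicate 3 (-0.06 to 0.22 over single libraries). Itgb5 (-0.06) became 0.08 with median-of-ratios rescaling, 0.06 with quantile normalization and 0.04 without day 1 replicate 3 (-0.2 to 0.04 over single libraries). Lamb3 from day 0 to day 1 (0.09) became -0.03 without day 0 replicate 2 and -0.08 without day 1 replicate 2 (-0.08 to 0.3 over single libraries). Over all gene results, 1683 of 1948 kept their direction and side of the threshold. Over all genes the F test called 2806, against 9091 with array weights, 10303 with the REML weights, 1398 in DNase-treated libraries, 4863 without the 3 libraries together and 5047 without day 4 replicate 3. It called 1677 and 1627 without replicates 2 or 3 of day 0, 1830 without replicate 2 of day 1 and 1829 without replicate 2 of day 5. The ratio of Itga3 to Itga6 kept its direction in all 7 settings per comparison, with differences of 1.49 to 1.77 (log2) between days 0 and 5; these ratio settings and the REML weights were added after seeing the data. Depth limits Lama3 in replicates 2 and 3 of day 0, where its values stand for less than 1 read per kilobase.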
